A study of Rattus norvegicus with 5 samples.

Results

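Amino acid transporters were followed across 4 rat hepatocellular carcinoma cell lines and 1 normal rat liver. The members were chosen by gene symbol: all probes of the array whose symbol starts with Slc1a, Slc6a, Slc7a, Slc36a, Slc38a or Slc43a, without the 3 probes of the cystine importer Slc7a11. That gave 64 probes of 46 genes, among 12198 genes with a named probe. The prefix also takes in Slc7a6os, a neighbour of Slc7a6 on the opposite strand that encodes no carrier. Some Slc6a carriers transport other small molecules (monoamines, creatine), and Slc43a3 transports purine bases.

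The high-metastatic lines N1 and L2 and the low-metastatic lines C5F and C6 come from male F344 rats given N-nitrosomorpholine and diethylnitrosamine, and their age is given as 31 weeks. They were set against normal liver from a male SD rat, untreated, aged 50 weeks. Total RNA of each was read on 1 single-colour CodeLink array, which gives 2 replicates (lines) per class and no replicate for liver. Strain, age, culture and tumour all differ between the lines and the liver and cannot be told apart.

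Cells take up amino acids through several carrier families. Sodium-coupled carriers (Slc1a, Slc6a, Slc38a) concentrate amino acids inside the cell, while exchangers (most of Slc7a) trade one amino acid for another, some of them paired with the heavy chain Slc3a2 or Slc3a1. Hepatocytes are known to take up alanine and glutamine for gluconeogenesis and urea synthesis, and to take up arginine and lysine poorly through CAT-1, the product of Slc7a1. Growing tumour cells are known to depend on imported glutamine, leucine and arginine.

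Values are log2 signals of quantile-normalised intensity. They can be compared between arrays for 1 probe, but not between probes. A spot was above or near background by the scanner software's own call. A spot near background has only an upper limit, and signals were floored at log2 1.34. A fold given as "at least" compares means of groups of arrays, with such spots at their limit, and need not hold for each line. Spots called irregular, contaminated or masked were not used. Between 30.6% and 39.2% of 33849 probes were above background per array, the lowest share in liver and the highest in C5F, and with 5 arrays in all, their number sets the precision. Hepatocyte markers were above background for 6 of 7 genes in liver, where Apoa1 had no usable spot. They were so for 5 in C5F, where Cyp2e1 had no usable spot, and for 1 each in C6, N1 and L2. Alb, Ttr, Serpina1, Ahsg and Hnf4a, the 5 of these with a usable spot on every array, summed to a signal of 45.6 to 1832 in the lines, the highest in C5F, against 28150 in liver. Macrophage markers (Cd68, Cd163, Clec4f, Csf1r) summed to 52.6 to 77.3 in the lines, against 3374 in liver. Csf1r was near background in all lines, while Clec4f was above background in all lines, at log2 4.37 to 4.65, against 11.03 in liver. Sinusoidal endothelial markers (Stab1, Stab2, Lyve1, Kdr) summed to 15.9 to 27.0 in the lines, against 464 in liver, and all but Stab1 were near background in all lines. Pecam1, of the same list but with an irregular liver spot, was above background in all 4 lines, at log2 4.02 to 4.40. The part of these cells in the liver signals below was not tested. In a whole tissue, fewer cells of a type and less RNA per cell cannot be told apart.

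Of the 46 genes, 31 were above background on at least 1 array and 15 on none. Above background were 16 genes in N1, 17 in L2, 22 in C5F, 16 in C6 and 16 in liver. By probe, 29.7%, 28.1%, 40.6%, 29.7% and 26.6% of the 64 were above background in N1, L2, C5F, C6 and liver. C5F was thus the highest array both for these probes and for all probes, and liver the lowest for both. A probe entered the tests when liver, or 2 or more lines, read above background, which 25 genes passed and 21 did not. Slc6a13, Slc6a14, Slc38a3 and Slc38a4 passed through liver alone, as did Slc7a5, Slc7a14 and Slc7a6os, which had too few usable spots for a test. Slc6a13 and Slc6a14, near background in all lines, could only come out low in the lines. Slc38a3 and Slc38a4 had 1 line each above background and were tested only because liver was high. The tests of these genes thus describe these arrays, and no count over the 25 is read as support. For 16 genes the lines could be tested against liver, and for 19 the classes against each other. The remaining genes lacked usable spots.

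**Figure D1:**
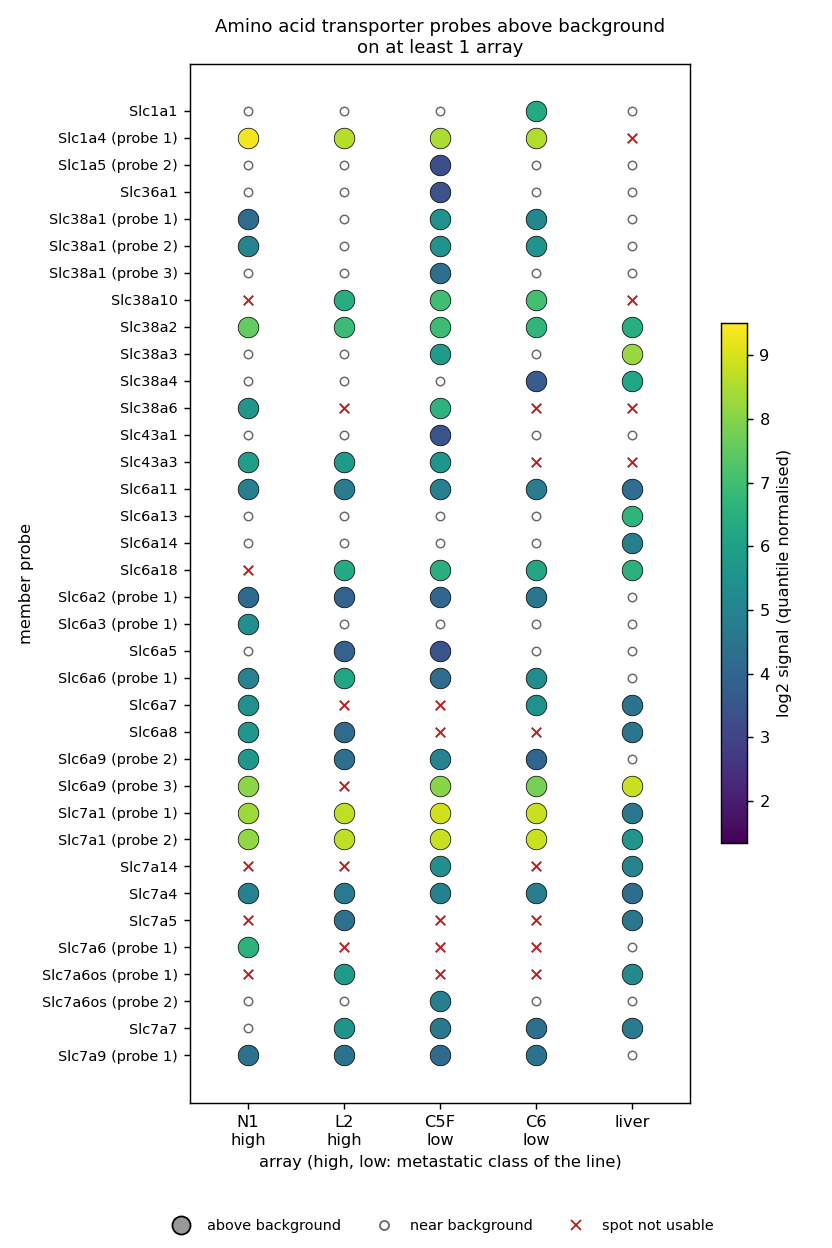
Member probes (rows, in order of gene name; probe numbers follow the order on the array) above background on at least 1 of the 5 arrays (columns). Large circles are spots above background, coloured by log2 signal, small open circles are near background and crosses are spots not usable. Slc6a13, Slc38a3 and Slc38a4 are coloured in liver and mostly open in the lines, and the 2 Slc7a1 probes are brighter in all 4 lines than in liver.

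The comparison of the 4 lines with liver asks which carriers set the carcinoma lines apart from the tissue. By limma's moderated test with Benjamini-Hochberg adjustment over all 11949 probes tested, 1 of 16 member genes rose, the cationic amino acid carrier Slc7a1. The GABA and taurine carrier Slc6a13, which entered the tests through liver alone, was the 1 gene that fell. Over all probes tested, 9.01% rose and 9.38% fell, so that these shares of the members were no higher than the background. The median log2 difference was 0.41 over the 16 genes, against 0.15 over all probes. It was 0.13 with the 7 genes that were near background on one side set to their bound. The median over all probes was taken without bounds, so that it is no like measure for the 0.13. At an unadjusted p under 0.05 there were 8 members, Slc6a13, Slc6a14, Slc38a3 and Slc38a4 among them, against 38.6% of all probes. No call survived the removal of any single line (0 higher and 0 lower in each of the 4 fits, in which 0 probes of the whole array passed).

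Slc7a1 encodes CAT-1, which imports arginine, lysine and ornithine. Its first probe read 8.31 in N1, 8.68 in L2, 8.91 in C5F and 8.82 in C6, against 4.58 in liver. Its second probe read 8.13 in N1, 8.67 in L2, 8.81 in C5F and 8.86 in C6, against 5.59 in liver. All spots were above background, and all 4 lines were well above the liver on both probes. The lines averaged 8.68 ± 0.26 on the first probe and 8.62 ± 0.33 on the second (SD, n = 4 lines). The difference from liver was 4.1 ± 0.25 on the first probe (17.1-fold, limma adjusted p = 0.0100) and 3.03 ± 0.30 on the second (8.19-fold, limma adjusted p = 0.0185; SE, n = 4 lines against 1 liver). The second probe has the higher mean over all 5 arrays, through its liver value, and stands for the gene. With each line left out in turn its difference stayed between 2.90 and 3.17, with limma adjusted p between 0.0503 and 0.0885. Over the other settings on this probe it ranged from 2.18 to 3.3, with limma adjusted p between 0.00976 and 0.0422. Slc7a1 is the member whose rise rests on spots above background on every array.

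The promoter of Slc7a1 is printed because Slc7a1 is the member that rose, and because rat Slc7a1 is known to respond to amino acid shortage. That response runs through CARE elements, short sites bound by ATF4 and C/EBP factors. The core searched was TGATGNAA on both strands, in windows from 250 bases before to 50 bases after the start of each RefSeq gene (GRCr8). The core was in 3 of 37 member promoters with an entry (Slc1a4, Slc38a1 and Slc7a1), against 3.98% of all 33469 promoters. The E-box CACGTG, also searched, was in 8 of the 37, against 6.42% of all promoters, and was not in that of Slc7a1. A match describes letters in a window and is no evidence of binding. Capitals mark the core, read in the direction of the gene. The whole window of Slc7a1 is shown (chr12:11664238-11664537, plus strand), with 39 bases around the core of Slc1a4 (chr14:98761774-98761812, minus strand) and 40 around that of Slc38a1 (chr7:129681520-129681559, minus strand). In Slc1a4 the core lies on the other strand, so that its reverse complement is in capitals.
Slc7a1: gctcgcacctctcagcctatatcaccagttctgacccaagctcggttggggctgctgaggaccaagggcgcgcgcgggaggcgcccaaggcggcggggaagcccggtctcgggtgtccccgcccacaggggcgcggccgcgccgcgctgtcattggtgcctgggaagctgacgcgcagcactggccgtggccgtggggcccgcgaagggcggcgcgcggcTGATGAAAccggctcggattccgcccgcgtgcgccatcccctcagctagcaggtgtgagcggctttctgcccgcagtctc
Slc1a4: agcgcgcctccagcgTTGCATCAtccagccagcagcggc
Slc38a1: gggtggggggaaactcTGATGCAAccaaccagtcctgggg

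The other cationic carriers of the family gave smaller or no differences. Slc7a4, a relative of the CAT carriers with no settled substrate, read 4.96 in N1, 4.66 in L2, 4.90 in C5F and 4.76 in C6, against 4.18 in liver. All lines were above the liver, and the difference of 0.64 ± 0.24 did not pass the test (limma adjusted p = 0.151). Slc7a14, a lysosomal relative, had a usable line spot in C5F alone, at 5.41 against 5.02 in liver. Its difference with irregular spots kept was 0.31 ± 0.28 and did not pass the test. Slc7a3, a cationic carrier of brain, was near background on all usable spots of both probes. The C5F spot of its first probe was irregular, and with irregular spots kept it read 6.34, against 3.32 in liver. Slc7a2, the cationic carrier typical of hepatocytes, was not analysed here.

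Slc6a13 encodes GAT2, a carrier of GABA and taurine known from periportal hepatocytes and kidney. It was near background in all lines, at the floor of 1.34 in N1, L2 and C5F and at 2.45 in C6, against 6.63 in liver. The lines averaged 1.62 ± 0.56 (SD, n = 4 lines), and no line came near the liver. Slc6a13 was on average at least 9.22-fold lower in the lines, with a fitted log2 difference of −5.01 ± 0.51 (SE, n = 4 lines against 1 liver; limma adjusted p = 0.0195) whose size depends on the floor. Since it was above background in liver alone, it was tested only because liver was high, and without the filter it was not called (limma adjusted p = 0.0562). Leaving out each line gave limma adjusted p between 0.0698 and 0.0769, with fitted differences from −5.29 to −4.74.

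**Figure D2:**
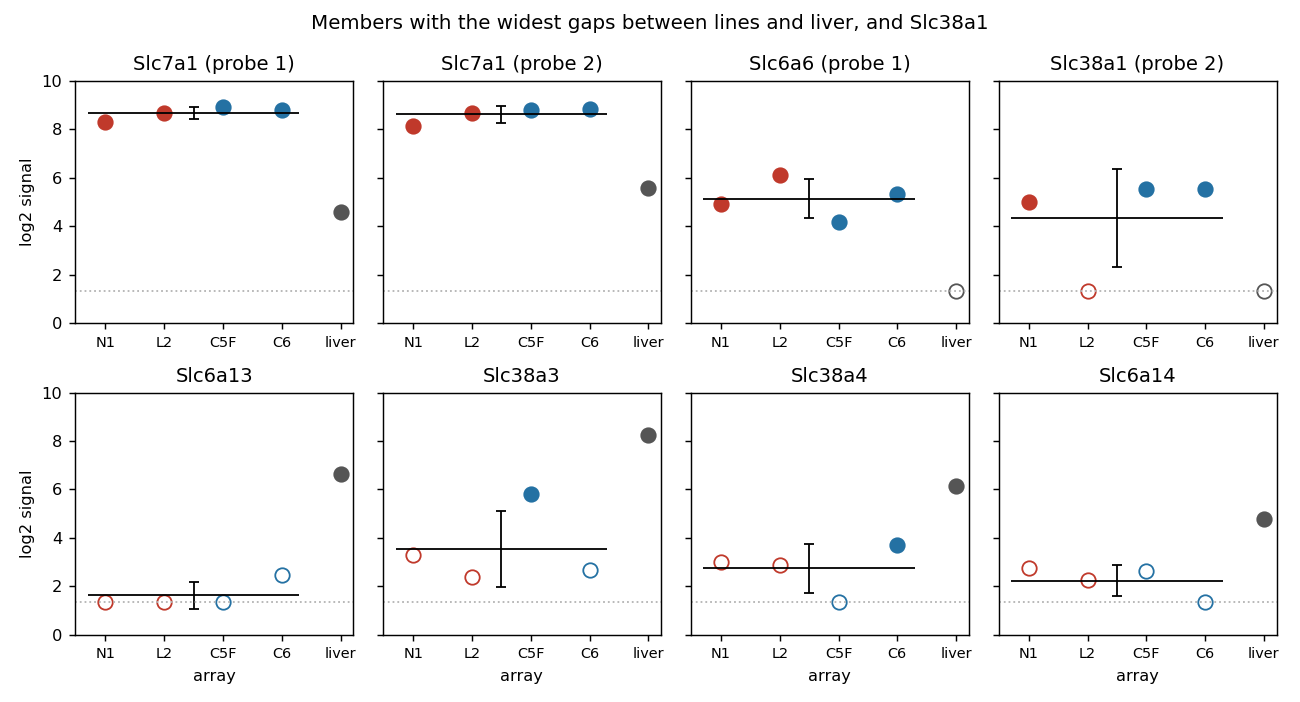
Log2 signal (vertical axis) on the 5 arrays (horizontal axis) for 8 member probes. Red marks the high-metastatic lines, blue the low-metastatic lines and grey the liver; filled points are above background and open points near it, black lines with bars are the mean and SD of the 4 lines, and the dotted line is the floor. Both Slc7a1 probes and Slc6a6 lie above the liver in every line, while Slc6a13, Slc38a3, Slc38a4 and Slc6a14 lie below it in every line, and Slc38a1 is filled in N1, C5F and C6 but open in L2 and liver.

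A rule of size, with no test, gave the wider picture. Of 14 member genes that passed the filter with a usable spot on all 5 arrays, 2 had all 4 lines 2-fold or more above liver by floored signal (Slc6a6 and Slc7a1), against 15.3% of all such probes. For Slc6a6, at the floor in liver, this is not shown as a true fold. Slc1a1, Slc1a5 and Slc38a7 met the same rule on signals but did not pass the filter, being near background in liver and in most or all lines. In the other direction 4 had all 4 lines 2-fold or more below liver (Slc6a13, Slc6a14, Slc38a3 and Slc38a4), against 18% of all such probes. Among the 14, these were the genes that passed through liver alone. Apart from Slc7a1 and Slc6a13, none of the genes that met the rule in either direction passed the limma test.

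Slc38a3 and Slc38a4 encode the glutamine carrier SNAT3 (system N) and the hepatic neutral and cationic amino acid carrier SNAT4 (system A). Slc38a3 read 3.31 in N1, 2.37 in L2, 5.80 in C5F and 2.67 in C6, against 8.24 in liver. Among the lines it was above background in C5F alone, where it was 2.44 log2 units below liver. In N1, L2 and C6 it was on average at least 25.2-fold below liver, and at least 4.64-fold below C5F. C5F is also the line with the most hepatocyte markers above background. The difference of all lines from liver, −4.70 ± 1.40, did not pass (limma adjusted p = 0.105). When 50 was added to each raw intensity in place of the floor, it passed at −2.40 (limma adjusted p = 0.0273). Slc38a3 was tested only because liver was high, so that this pass is not read as support for a fall.

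Slc38a4 read 2.98 in N1, 2.89 in L2, 1.34 in C5F and 3.72 in C6, against 6.16 in liver. Only C6 was above background among the lines, 2.44 log2 units below liver, and the other 3 lines were on average at least 6.83-fold below liver. The line that kept Slc38a3 above background, C5F, was thus at the floor for Slc38a4. The difference of −3.42 ± 1.03 did not pass (limma adjusted p = 0.107), and with the offset of 50 it passed at −1.09 (limma adjusted p = 0.0246). Slc38a4 too was tested only because liver was high, and this pass is not read as support either.

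System A has 2 further members, both known from many tissues. Slc38a2, the SNAT2 carrier that is induced by amino acid shortage, read 7.54 in N1, 6.90 in L2, 6.92 in C5F and 6.67 in C6, against 6.44 in liver. Every line was above the liver, by less than for Slc7a1, and the difference of 0.56 ± 0.35 did not pass (limma adjusted p = 0.311). Slc38a1, the glutamine carrier SNAT1, split the lines. Its second probe read 5.01 in N1, 1.34 in L2, 5.56 in C5F and 5.52 in C6, against 1.34 in liver. Its first probe read 4.17 in N1, 2.47 in L2, 5.51 in C5F and 5.16 in C6, against 3.40 in liver. On both probes N1, C5F and C6 were above background while L2 and liver were near it. The mean of the 3 lines lay at least 3.68-fold above L2 and at least 2.82-fold above liver on the second probe, and at least 2.76-fold and 2.11-fold on the first. Probe 3 of Slc38a1 was above background in C5F alone, at 4.28. As a group of 4 against liver, the lines differed by 0.93 ± 0.76 on the first probe, which stands for the gene (limma adjusted p = 0.431), and by 3.02 ± 1.57 on the second (limma adjusted p = 0.250).

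Slc38a5, the other system N carrier, was near background on all arrays, between 3.02 and 3.59. Of the remaining Slc38a genes, Slc38a10 read 6.42 in L2, 7.0 in C5F and 7.04 in C6, without a usable spot in N1 or liver. With irregular spots kept, Slc38a10 read 6.86 in N1, 6.51 in L2, 7.04 in C5F and 7.07 in C6, against 7.31 in liver. Every line was then below the liver, and the difference of −0.44 ± 0.24 did not pass the test. Slc38a6 read 5.59 in N1 and 6.61 in C5F and had no other usable spot. Its difference from liver with irregular spots kept was 0.077 ± 0.32 and did not pass the test. The lysosomal carriers Slc38a7 and Slc38a9, of which Slc38a9 senses arginine for the mTORC1 pathway, were near background on all arrays, at most 3.45 on any of their 3 probes.

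Among the Slc6a carriers, Slc6a6 imports taurine. It read 4.93 in N1, 6.14 in L2, 4.19 in C5F and 5.31 in C6, all above background, against the floor of 1.34 in liver. The lines averaged 5.14 ± 0.81 (SD, n = 4 lines) and their mean was at least 2.42-fold above liver, and the groups did not overlap. The fitted difference of 3.80 ± 0.72 lay at the edge of the threshold (limma adjusted p = 0.0505), and it passed under 4 of the 9 settings that left out no line (limma adjusted p from 0.0351 to 0.157). Its second probe was at the floor on all arrays, so that the difference rests on 1 probe. The taurine carriers Slc6a6 and Slc6a13 thus pointed opposite ways, with Slc6a6 bright in the lines and Slc6a13 in liver.

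Slc6a14, a carrier of neutral and cationic amino acids, read 2.74 in N1, 2.24 in L2, 2.62 in C5F and 1.34 in C6, all near background, against 4.77 in liver. The lines were on average at least 2.53-fold below liver, and the fitted difference of −2.53 ± 0.62 did not pass (limma adjusted p = 0.0752). Slc6a9, a glycine carrier, gave opposite directions by probe. Its probe 3, the brightest, read 8.08 in N1, 8.05 in C5F and 7.78 in C6, against 8.86 in liver (−0.86 ± 0.28, limma adjusted p = 0.160). Probe 2 read 5.68 in N1, 4.26 in L2, 5.02 in C5F and 3.97 in C6, against 3.68 and near background in liver (1.05 ± 0.78, limma adjusted p = 0.385). Probe 1 was near background on all arrays. No direction is therefore given for Slc6a9.

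Slc6a7, a proline carrier of brain, read 5.43 in N1 and 5.50 in C6, against 4.47 in liver, too few spots for a test. Its difference with irregular spots kept was 0.82 ± 0.32 and did not pass. Slc6a18, known as a kidney carrier of neutral amino acids, read 6.25 in L2, 6.49 in C5F and 6.14 in C6, against 6.57 in liver. Its difference of −0.28 ± 0.30 was within the error (limma adjusted p = 0.561) and turned to 0.086 when arrays were scaled to the median of their probes above background. Slc6a5, a glycine carrier of neurons, read 3.83 in N1, 3.83 in L2, 3.43 in C5F and 3.80 in C6, against 2.94 in liver, with only L2 and C5F above background (0.78 ± 0.25, limma adjusted p = 0.116). Slc6a15, a carrier of branched-chain amino acids and proline, was near background on all arrays.

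Of the remaining Slc6a genes, Slc6a8 imports creatine. It read 5.65 in N1 and 4.12 in L2, against 4.52 in liver, without a usable spot in C5F or C6. The 2 high-metastatic lines thus stood on either side of the liver. With irregular spots kept, Slc6a8 read 5.45 in N1, 4.19 in L2, 6.10 in C5F and 6.08 in C6, against 4.54 in liver (0.92 ± 0.57, limma adjusted p = 0.310). The difference between the classes was then −1.27 ± 0.51 (limma adjusted p = 0.679). Slc6a11, a GABA carrier of brain, read 4.82 in N1, 4.73 in L2, 4.87 in C5F and 4.74 in C6, against 4.27 in liver (0.52 ± 0.20, limma adjusted p = 0.163). The noradrenaline carrier Slc6a2 read 4.09 in N1, 3.89 in L2, 4.01 in C5F and 4.56 in C6, against 3.85 and near background in liver (0.29 ± 0.31, limma adjusted p = 0.537), with its second probe near background on all arrays. The dopamine carrier Slc6a3 read 5.36 in N1 and the floor of 1.34 on the 4 other arrays, at least 4.07-fold above the mean limit of the other lines. Its second probe was near background on all arrays, N1 included. The serotonin carrier Slc6a4 was near background on both probes.

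Large neutral amino acids such as leucine enter mainly through system L. Slc7a5, its LAT1 subunit, read 4.43 in L2, against 4.62 in liver, and its spots in N1, C5F and C6 were irregular. With irregular spots kept, the normalisation included, it read 5.56 in N1, 4.50 in L2, 5.13 in C5F and 5.59 in C6, against 4.64 in liver (0.55 ± 0.52, limma adjusted p = 0.486). Slc43a1, a uniporter of the same system, was above background in C5F alone, at 3.44, and Slc43a2 on no array. Slc7a8, the LAT2 subunit, was not analysed here. The heavy chain Slc3a2, which carries Slc7a5, Slc7a6 and Slc7a7 to the membrane and is no member of the set, read 8.63 in N1, 9.46 in L2, 8.52 in C5F and 8.85 in C6, against 7.87 in liver. Every line was above the liver, by 0.99 ± 0.43 on average (limma adjusted p = 0.190).

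The y+L exchangers Slc7a7 and Slc7a6 export cationic amino acids against neutral ones and sodium. Slc7a7 read 3.68 in N1, 5.55 in L2, 4.63 in C5F and 4.28 in C6, against 4.75 in liver. Only N1 was near background, L2 was above the liver and C5F and C6 below it (−0.21 ± 0.83, limma adjusted p = 0.868), and without N1 the difference turned to 0.26. Slc7a6 had 1 usable line spot on its first probe, 6.59 in N1, against 2.41 and near background in liver. With irregular spots kept it read 6.52 in N1, 6.77 in L2, 6.63 in C5F and 6.45 in C6, against 2.42 in liver, and passed the test at 4.17 ± 0.23 (limma adjusted p = 0.00920). Its second probe was near background on all arrays. The first probe of its neighbour Slc7a6os read 5.75 in L2, against 5.20 in liver, and the second 4.80 in C5F, near background elsewhere. On the first probe the difference with irregular spots kept was 0.82 ± 0.19 and did not pass the test.

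Slc7a9, the light chain of the renal cystine and cationic exchanger, read 4.37 in N1, 4.40 in L2, 4.09 in C5F and 4.43 in C6, against 3.23 and near background in liver. The mean of the lines was at least 1.37-fold above liver (fitted difference 1.09 ± 0.24, limma adjusted p = 0.0642), with the second probe at the floor on all arrays. Slc3a1, the heavy chain of Slc7a9, read 4.85 in N1, 3.92 in L2, 4.71 in C5F and 3.27 in C6, against 4.04 in liver, with C6 and liver near background (0.15, limma adjusted p = 0.899). Slc7a12, Slc7a13 and Slc7a15 were near background on all arrays.

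The Slc1a exchangers carry alanine, serine, cysteine and, in the case of Slc1a5, glutamine. Slc1a4 read 9.35 in N1, 8.59 in L2, 8.46 in C5F and 8.55 in C6, while its liver spot was irregular. With irregular spots kept it read 9.35 in N1, 8.55 in L2, 8.48 in C5F and 8.57 in C6, against 6.0 in liver, and passed at 2.73 ± 0.39 (limma adjusted p = 0.0316). Its second probe was near background on all arrays. Slc1a5 was above background in C5F alone, at 3.31 on its second probe, where C6 read 3.63 but was called near background, and its first was near background on all arrays, between 2.66 and 3.57 in the lines and at the floor in liver. Of the glutamate carriers Slc1a1 was above background in C6 alone, at 6.25, at least 7.28-fold above the mean limit of the other lines and 5.21-fold above liver. Slc1a2, which in liver is known from perivenous hepatocytes, was at the floor on both probes of every array, the liver included. Slc1a3, Slc1a6 and Slc1a7 were near background throughout. The proton-coupled carrier Slc36a1 was above background in C5F alone, at 3.39, and Slc36a2 on no array. The lowest signal called above background was log2 2.98 in C5F, against 3.48 to 3.87 on the other arrays. The C5F signals of Slc36a1, Slc43a1, Slc1a5 and Slc6a5 lay below those higher limits, so that their calls in C5F do not set this line apart. The purine carrier Slc43a3 read 5.88 in N1, 5.77 in L2 and 5.64 in C5F, without a usable spot in C6 or liver. With irregular spots kept, it read 5.73 in N1, 5.88 in L2, 5.78 in C5F and 5.65 in C6, against 6.38 in liver. Every line was then below the liver, and the difference of −0.62 ± 0.20 did not pass the test.

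**Figure D3:**
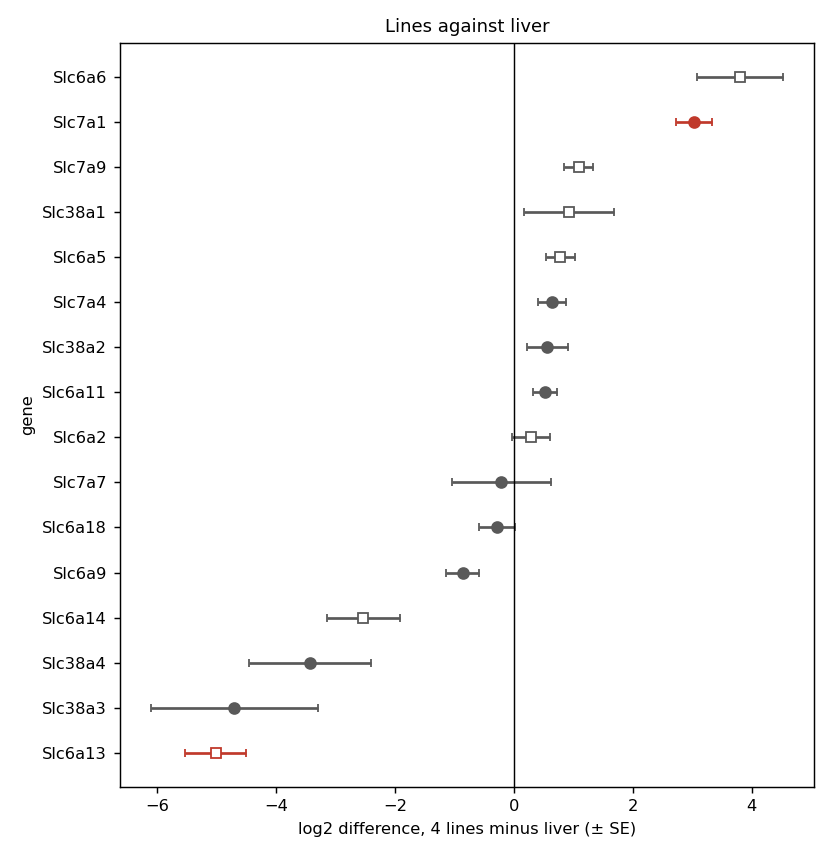
Log2 difference of the 4 lines minus liver with its SE (horizontal axis) for the 16 member genes tested (vertical axis). Red marks genes past the limma threshold; open squares mark genes near background in liver or in all lines, whose size depends on the floor. Slc7a1 at 3.03 and Slc6a13 at −5.01 are the genes called.

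Setting the high-metastatic lines against the low-metastatic ones asks which carriers go with metastatic ability. None was called. Of 19 member genes tested by limma with Benjamini-Hochberg adjustment, 0 passed and 0 were at an unadjusted p under 0.05. Over all 13741 probes 0% passed, with 7.31% at an unadjusted p under 0.05. The members' adjusted p-values ran from 0.680 to 0.992. Of the 19 genes, 10 pointed higher and 9 lower in the high-metastatic lines, with a median of 0.13 against 0 over all probes, and 17 differed by less than 1 log2 unit. Among 15 member genes that passed the filter with usable spots in all 4 lines, none had both high-metastatic lines at least 2-fold above both low-metastatic lines (1.43% of all such probes), and none at least 2-fold below (1.1%).

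The 2 genes beyond 1 log2 unit, Slc38a1 and Slc38a3, each leaned on 1 line. Slc38a1 differed by −2.02 ± 0.68 on its first probe (limma adjusted p = 0.680), with L2 near background. It averaged 3.32 in N1 and L2 and 5.33 in C5F and C6, and the difference became −1.16 without L2. Slc38a3 differed by −1.40 ± 1.25 (limma adjusted p = 0.813) and turned to 0.16 without C5F, the only line above background. Slc6a6 differed by 0.78 ± 0.65 (limma adjusted p = 0.804), and the classes overlapped, since N1 at 4.93 lay below C6 at 5.31. For Slc7a1 the difference was −0.43 ± 0.27 (limma adjusted p = 0.778), and both high-metastatic lines lay below both low-metastatic lines on both probes, by less than 2-fold.

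**Figure D4:**
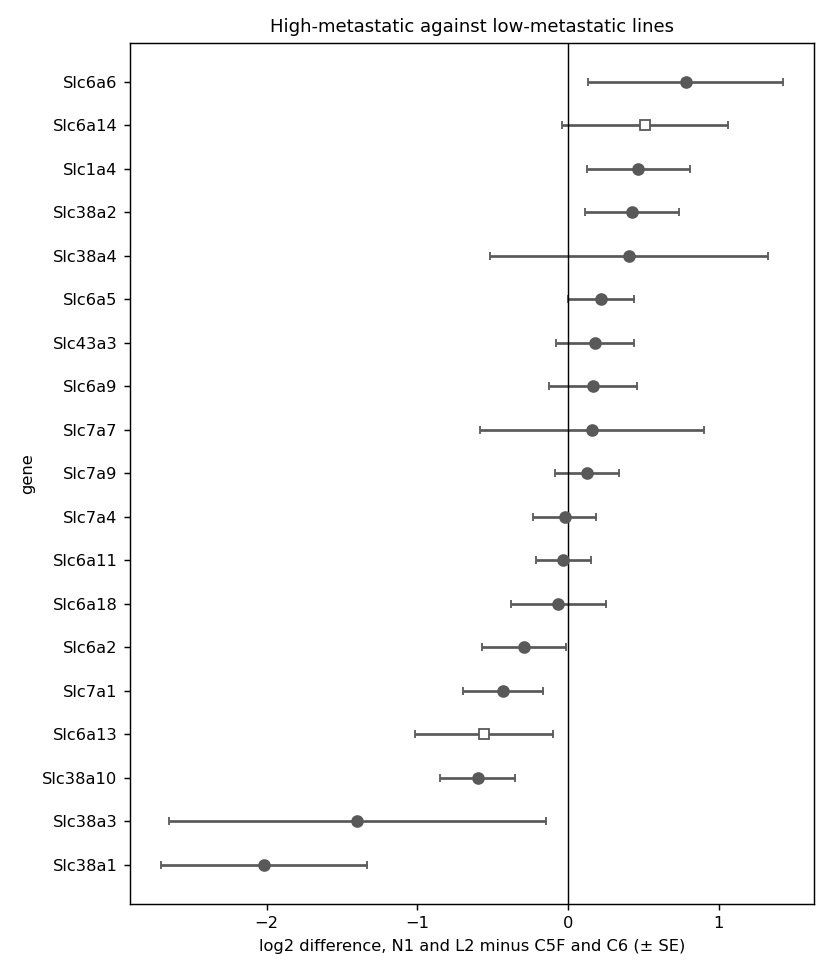
Log2 difference of N1 and L2 minus C5F and C6 with its SE (horizontal axis) for the 19 member genes tested (vertical axis). Open squares mark genes near background in all 4 lines; no gene passed the threshold, and Slc38a1 at −2.02 has the widest difference.

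The other members lay closer together. Slc1a4 differed by 0.47 ± 0.34, Slc38a2 by 0.42 ± 0.31 and Slc38a10 by −0.60 ± 0.25, the last without a usable spot in N1. Slc6a14 and Slc6a13, near background in all 4 lines, gave 0.51 and −0.56 as fitted values that depend on the floor. Slc38a4 gave 0.41 ± 0.92 and turned to −0.78 without C5F. Slc7a7 gave 0.16 ± 0.74, with L2 the highest line and N1 the lowest, so that the spread within the high-metastatic class exceeded the difference. Slc7a4, Slc7a9, Slc6a11, Slc6a18, Slc6a9, Slc6a5, Slc6a2 and Slc43a3 differed by −0.29 to 0.22.

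Genes around the carriers were read from lists. Of 7 other carriers of amino acids and peptides tested against liver, 1 fell and 0 rose. It was the aromatic amino acid carrier Slc16a10, which was near background in all lines and on average at least 7.18-fold below liver (limma adjusted p = 0.0463). It too was tested through liver alone and could only point down. Of 11 genes of amino acid sensing around mTORC1, 5 of glutamine use and 5 of the amino acid response, 0 were called in either direction. Over all probes tested, 9.01% rose and 9.38% fell. In lists this short, a count of 0 is therefore not read as a result about these genes. The median differences from liver were 0.45 for sensing, −0.58 for glutamine use and −0.02 for the amino acid response, against 0.15 over all probes. Atf4, the factor that binds CARE sites, read 9.87 in N1, 9.42 in L2, 10.12 in C5F and 9.75 in C6, against 8.68 in liver (1.12 ± 0.31, limma adjusted p = 0.0949). Its target Asns, asparagine synthetase, read 6.50 in N1, 6.34 in L2, 6.82 in C5F and 6.29 in C6, against 6.51 in liver, and did not follow the same direction in all lines (−0.02 ± 0.30, limma adjusted p = 0.961). Atf5, a relative of Atf4, read 8.24 in N1, 6.95 in L2, 7.49 in C5F and 7.21 in C6, against 9.57 in liver (−2.09 ± 0.59, limma adjusted p = 0.0955). Eif2ak3 differed by −0.60 ± 0.27 (limma adjusted p = 0.245) and Eif2ak4 by 0.22 ± 0.28 (limma adjusted p = 0.624), both without a usable spot in N1. Sesn2 did not pass the filter, and Atf3 had no usable liver spot. Trib3, Chac1 and Ddit3 lacked the spots for a test. Trib3 read 7.81 in N1 and 7.71 in C5F, against 5.81 in liver. Chac1 read 7.27 in N1 and 7.92 in C5F, against 6.08 in liver, and Ddit3 read 7.36 in C5F and 7.93 in C6, against 7.0 in liver. Every usable line was above the liver for Trib3, Chac1 and Ddit3, while Atf5 lay below it in every line. All 4 cell division markers (Mki67, Top2a, Ccna2, Ccnb1) rose in the lines. Their summed signal, over Top2a and Ccna2, was 621 to 957 in the lines, against 119 in liver, and its part in the rise of Slc7a1 was not tested.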

How the data were processed

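Total RNA of 5 samples was hybridised to CodeLink Rat Whole Genome slides. Per the file headers, scans were read by the authors in CodeLink Expression Analysis (version 4.1.0.29054). The deposited raw intensity has background subtracted. The deposited normalized intensity is the raw intensity divided by the array median, and the series matrix holds the same values (largest difference 0).

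Here the raw intensity was used without control spots, with irregular, contaminated and masked spots taken as missing values, and arrays were quantile normalised with limma 3.58.1 in R 4.3.3. The floor was 2.53, the median signal of all near-background spots, before log2 was taken. The filter left 16377 probes. Names came from the platform annotation, where 16753 probes had 1 gene, 165 several and 16931 none. Entrez gene numbers updated them, and 16724 of 16753 probes matched RefSeq (GRCr8), the source of the promoters.

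One limma model with 3 groups (high-metastatic, low-metastatic, liver) was fitted to all 5 arrays, with 2 residual degrees of freedom at most and a prior of 1.46. It gave 2 contrasts, between the classes and between their mean and liver. Tests were two-sided, at an adjusted p of 0.05, and probes without a residual degree of freedom were not tested. The single liver has no spread of its own and takes that of the lines. The labels name no repeat culture or animal, so that p-values measure only the spread between lines. Each gene was taken by its brightest kept probe. A fold against a group near background throughout is given as "at least" and is a ratio of group means, from the higher of the probe's own signal and the lowest signal above background on each array (13.0 in N1, 11.2 in L2, 7.87 in C5F, 11.8 in C6 and 14.6 in liver). The fit was first tested on simulated data, in which only bright probes were changed and the liver varied as the lines did. That run therefore does not cover changes in genes near the floor, or a liver with another spread.

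The members, gene lists and rule for named genes were chosen with earlier results of these data known. The rule named every member, and gave values for those past a threshold, those separated 2-fold by class, the 10 with the largest difference per direction, and those above background in only 1 or 2 samples. Alternatives were other scalings, filters and floors, irregular spots kept, a robust fit, the lines as 1 group, other probes and leaving out each line.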

Additional observations from a re-analysis of the deposited data

How the results depend on the processing

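No paired analysis was possible because no replicate number links the samples, and no batch is labelled. Where the main setting called 1 member higher and 1 lower in the lines than in liver, scaling to the median of probes above background called 3 higher (Slc6a6 and Slc7a9 added) and the 4 lines as 1 group called 3 higher (the same additions). That scaling also shifted the median over all probes by 0.14. Keeping irregular spots called 3 higher (Slc1a4 and Slc7a6 added), while filtering by group and a robust fit each called 2 higher (Slc6a6 added). An offset of 50 called 3 lower (Slc38a3 and Slc38a4 added), all of which entered the tests through liver alone. With no filter on dim probes 3 were higher (Slc1a5, Slc38a7 and Slc7a1) and 1 lower, Slc36a2 in place of Slc6a13 (limma adjusted p = 0.0562); Slc1a5, Slc38a7 and Slc36a2 lay at or near background. Leaving out a line gave 0 to 0 higher and 0 to 0 lower, and 0 probes of the whole array were then called in either contrast, whichever line was left out. The removal also takes 1 of at most 2 residual degrees of freedom. Scaling to the 75th percentile and the authors' normalized intensity kept the counts at 1 and 1, and between the classes 0 members were called under every setting run. Differences of single members from liver that changed sign were those of Slc6a18 (0.0858 with median scaling, 0.0563 with irregular spots kept), Slc6a9 (1.05 on its other probe) and Slc7a7 (−0.68 to 0.26 with a line left out). Between the classes, Slc43a3 became −0.22 with median scaling and −0.014 with the 75th percentile, and Slc6a18 became 0.0884 with irregular spots kept. With the authors' normalized intensity Slc6a11, Slc6a18 and Slc7a4 became 0.115, 0.0222 and 0.11. With a line left out, class differences ran from −2.96 to 0.16 for Slc38a3, −0.78 to 1.60 for Slc38a4, −0.099 to 0.0372 for Slc6a11, −0.13 to 1.15 for Slc6a14, −0.17 to 0.13 for Slc7a4, −0.78 to 1.09 for Slc7a7 and −0.044 to 0.29 for Slc7a9. Slc38a3 and Slc38a4 changed sign without C5F. The causes were not tested. Over all settings, 4 of the differences from liver and 16 of the class differences recomputed changed sign. Signals near background limit Slc6a13, Slc6a14, Slc38a3 and Slc38a4 in the lines and Slc6a6 in liver to bounds.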
